A study of Mus musculus with 6 samples.

Results

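The collagen genes of mouse skin were described over 6 RNA sequencing libraries taken during wound healing. They were taken as every gene with a symbol of the form Col, a number, a and a number that the tables annotate as protein-coding. The rule found 44 genes among 26644 listed in any of the 3 tables, and all 44 were listed in each table. By the kind of assembly their proteins form, 8 are fibrillar, 6 are fibril-associated (FACIT), 6 belong to type IV collagen of basement membranes, 3 belong to the zone next to basement membranes, 6 are chains of beaded filaments, 7 are cartilage collagens, 4 are transmembrane collagens and 4 belong to none of these.

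Collagens are secreted or membrane-bound proteins whose chains wind around each other into a stiff helix. Fibrillar collagens give the dermis its tensile strength and are laid down by fibroblasts while a wound fills with granulation tissue, whereas type IV collagen forms the sheet on which epithelium, vessel walls and muscle fibres rest. FACIT collagens coat the surface of fibrils, beaded filaments of type VI collagen link cells to the surrounding matrix, and cartilage collagens build the fibrils of cartilage and growth plates.

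The skin was either treated with C-PC (C-phycocyanin, a blue protein of Spirulina) or left untreated as a control, and was sampled at an early, a middle or a late stage of healing. The series asks how C-PC acts on chronic wounds that heal poorly. Each of the 6 combinations of treatment and stage is 1 library, so no value below has a replicate, and a difference between 2 libraries compares those libraries and not the conditions. The labels used here give no strain, sex, age, wound model, dose or day, and do not say how many animals a library stands for.

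The libraries held 15863637 to 18028674 reads on genes, and they differed in kind. The summed level of 13 skeletal muscle markers was 154300 CPM (reads of a gene per 1000000 reads on genes) in the late control and 161500 CPM in the middle C-PC library, against 2320 to 12410 CPM in the other 4. No other pair of libraries had a Spearman correlation over 19360 genes as high as these 2 muscle-rich ones, 0.977. The skin label was checked against keratins of the basal epidermis. Krt5 stood at 342 CPM in the middle control and 1473 CPM in the late C-PC library, but at 1.37 CPM in the early C-PC library and at 0 reads in both muscle-rich libraries and the early control. Hair follicle genes summed to 45230 CPM in the late C-PC library and to at most 74.6 CPM elsewhere. In bulk tissue, fewer cells of a type and less RNA per cell cannot be told apart, so a collagen level here is a level of the piece of tissue sequenced.

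Collagen reads made up 6.34% of all reads in the early control, 7.13% in the early C-PC library and 10.4% in the middle control. At 0.430% and 0.439% the share was low in the muscle-rich pair, middle C-PC and late control, and it was 1.66% in the late C-PC library. The first 3 libraries were thus high and the 2 muscle-rich ones low, with the late C-PC library between them. Counting error on these shares is small: the exact 95% binomial interval of the smallest runs from 0.427% to 0.433%. Of the 44 genes, 21 had their highest CPM in the middle control, while 11 had their lowest in the late control and 15 in the middle C-PC library.

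The make-up of the collagen reads differed along the same line. Fibrillar genes held 84.5%, 86.5% and 84.9% of collagen reads in both early libraries and the middle control and 82.7% in the late C-PC library, but 51.4% in the late control and 66.1% in the middle C-PC library. Type IV genes took 3.69%, 3.16% and 2.56% of collagen reads in the first 3 of these, 5.84% in the late C-PC library, 21.04% in the late control and 14.1% in the middle C-PC library. The summed CPM of type IV genes nevertheless differed least among the classes that hold many reads: it was 2340, 2254 and 2663 CPM in the early control, early C-PC library and middle control and 606, 924 and 966 CPM in the other 3. Fibrillar genes summed to 53510, 61640 and 88320 CPM and to 2842, 2256 and 13680 CPM in the same order.

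**Figure D1:**
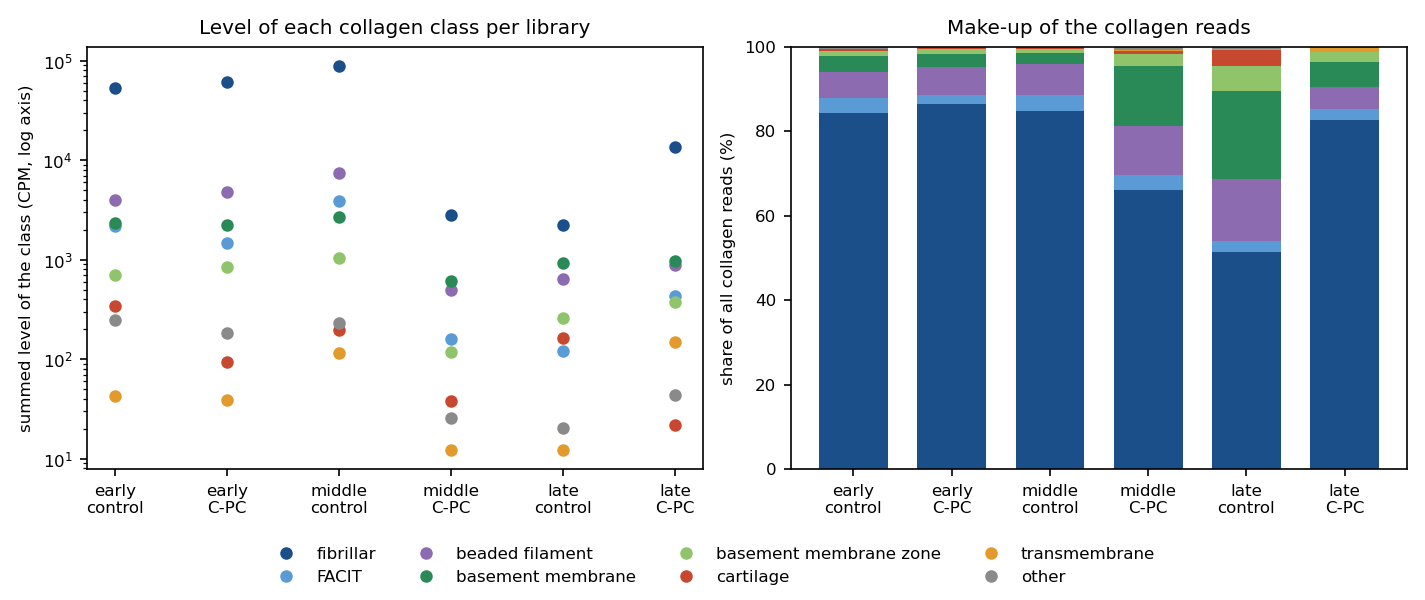
Summed level of each of the 8 collagen classes in each library, in CPM on a log axis (left), and the share of all collagen reads that each class holds, in percent (right); each point or bar segment is 1 library. The fibrillar class lies between 53510 and 88320 CPM in the 3 libraries with most collagen and at 2256 and 2842 CPM in the late control and the middle C-PC library, where type IV collagen takes 21.04% and 14.1% of collagen reads.

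Within a stage, C-PC was set against its control as a log2 ratio, after adding 2 to each deposited value. These values carry the authors' own scaling between the 2 libraries, so the sign of a small ratio can go against the CPM levels. A gene with at least 10 reads in 1 library was called higher or lower when it differed at least 2-fold and its 95% counting interval excluded equality. At the early stage the cartilage collagens were all lower with C-PC and no fibrillar collagen was called: 3 of 43 collagen genes were called higher and 9 lower, where 9.78% of 16589 genes were called, 2.92% higher and 6.85% lower. The median log2 ratio of the collagen genes was -0.02, and that of all genes 0.00. At the middle stage 31 of 44 collagen genes were lower and 6 higher, where 51.7% of 17076 genes were called, 28.1% lower and 23.6% higher. The collagen median was -2.16 and that of all genes -0.13. At the late stage 14 collagen genes were higher and 12 lower, where 49.4% of 17073 genes were called, 26.3% higher and 23.1% lower, with medians of 0.17 and 0.15. The late shares of collagen genes, 31.8% and 27.3%, were thus near those of all genes. Of the classes, 4 of 8 fibrillar genes lay on the higher side and 6 of 7 cartilage genes on the lower side.

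The middle and late stages pointed opposite ways for many members. Of the 44 genes, 11 were called lower at the middle stage and higher at the late stage, 3 the other way round, 7 lower at both and 1, Col4a6, higher at both. Among 15855 genes compared at both stages, 13.7% were lower and then higher, 15.9% higher and then lower, 1.73% lower at both and 0.946% higher at both. Changes of side were thus frequent in these libraries as a whole. The muscle-rich library is the C-PC one at the middle stage and the control at the late stage, and its part in them was not tested. Between the early and the middle stage fewer members changed side: Col22a1 was lower and then higher (2.03% of all genes), and Col28a1 and Col6a5 were higher and then lower (0.971%). In the same stages 5 members were lower at both (2.93%) and none was higher at both (0.438%). Scaled to total reads instead, the median of all genes moved from -0.13 to -0.66 at the middle stage and from 0.15 to 0.69 at the late stage. On that scale 3 collagen genes were higher and 35 lower at the middle stage, and 21 higher and 9 lower at the late stage, with 18 lower and then higher (24.7% of all genes) and 2 the other way round (10.3%). Among all genes the same change of scale gave 2686 higher and 6851 lower at the middle stage, in place of 4036 and 4800, and 6899 higher and 2654 lower at the late stage, in place of 4484 and 3951. In the authors' deposited table, 2 collagen genes were higher and 6 lower at an adjusted p under 0.05 at the early stage, 6 and 30 at the middle stage and 12 and 12 at the late stage. Of all genes with an adjusted p in that table, 0.502% were higher and 1.94% lower at the early stage, 16.7% and 19.6% at the middle stage and 18.4% and 16.6% at the late stage.

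**Figure D2:**
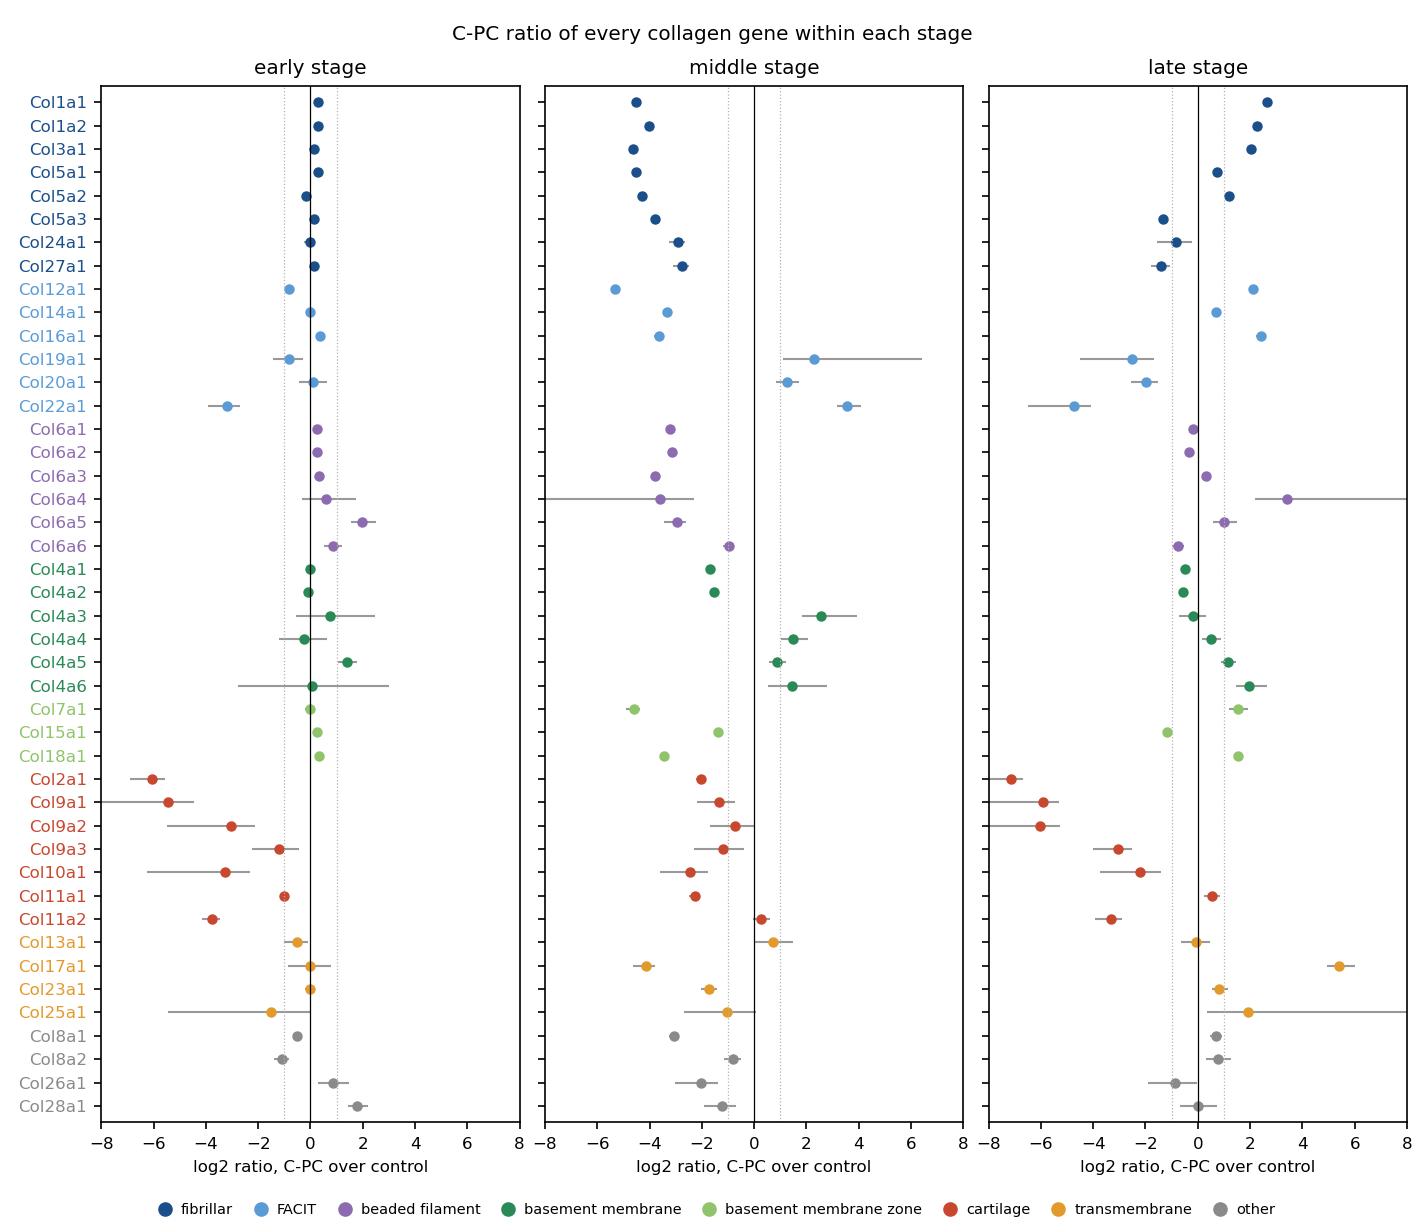
Log2 ratio of C-PC over control for all 44 collagen genes at each stage, coloured by class; bars are exact 95% conditional binomial intervals, cut off at the edge of the axis, and dotted lines mark a 2-fold difference. The 7 cartilage genes lie below 0 at the early stage, the 8 fibrillar genes lie between -4.65 and -2.76 at the middle stage, and Col17a1 lies at 5.40 at the late stage.

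Fibrillar collagens included the most abundant members, and all 8 were lower with C-PC at the middle stage while 4 were higher and 2 lower at the late stage. In what follows, levels of a stage are given with the control before the C-PC library. Col1a1, the main chain of type I collagen, stood at 17890 and 21800 CPM at the early stage, 26410 and 783 CPM at the middle stage and 454 and 4108 CPM at the late stage. Col1a2, its partner chain, stood at 12460 and 15080 CPM, 21260 and 897 CPM, and 486 and 3423 CPM. Both chains were high in the early libraries and the middle control, lowest in the late control and intermediate in the late C-PC library. The log2 ratio of Col1a1 was 0.31 (95% interval 0.30 to 0.31) at the early stage, -4.53 (-4.56 to -4.51) at the middle stage and 2.63 (2.60 to 2.66) at the late stage. That of Col1a2 was 0.30, -4.02 and 2.27.

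Col3a1, the type III collagen that is laid down with type I in skin and vessel walls, stood at 17810 and 19110 CPM, 34120 and 932 CPM, and 914 and 5463 CPM. Its log2 ratios were 0.12, -4.65 (-4.67 to -4.63) and 2.03 (2.01 to 2.06), the lowest value of any fibrillar gene at the middle stage. Together Col1a1, Col1a2 and Col3a1 held 76.0% to 78.6% of collagen reads in both early libraries, the middle control and the late C-PC library, 42.2% in the late control and 60.7% in the middle C-PC library. Without these 3 genes, collagen still summed to 15200, 15310 and 22250 CPM in the early control, the early C-PC library and the middle control, against 1690 and 3554 CPM in the later C-PC libraries and 2537 CPM in the late control.

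Sequences before the starts of Col3a1 and Col1a2 are shown because these genes had like ratios at each stage while the sequences differ in make-up. Col3a1 lies on chromosome 1 from 45311538 to 45349706 and Col1a2 on chromosome 6 from 4504814 to 4541544, both on the plus strand of GRCm38, as the tables give them. The stretches are taken from RefSeq (GRCm38.p6), chr1:45311288-45311537 for Col3a1 and chr6:4505370-4505492 for Col1a2, plus strand. Each is the longest run without an annotated exon in the 300 bases around the RefSeq start, so it need not reach that start. The Col1a2 stretch lies inside the gene as the tables draw it, before its RefSeq start. Capitals mark matches to TATAAA or GGGCGG on either strand.
Col3a1: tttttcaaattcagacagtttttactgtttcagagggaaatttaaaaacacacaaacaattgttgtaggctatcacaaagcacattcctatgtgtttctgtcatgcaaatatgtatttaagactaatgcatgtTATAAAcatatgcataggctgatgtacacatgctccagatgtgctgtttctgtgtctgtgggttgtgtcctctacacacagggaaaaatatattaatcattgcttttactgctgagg
Col1a2: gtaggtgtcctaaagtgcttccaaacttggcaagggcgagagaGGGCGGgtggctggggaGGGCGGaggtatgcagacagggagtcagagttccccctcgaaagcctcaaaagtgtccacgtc
The Col3a1 stretch is 35.2% G or C and holds 1 TATAAA, a motif found in 12.4% of all upstream stretches of that length. The Col1a2 stretch is 59.3% G or C and holds 2 copies of GGGCGG, found in 26.7% of stretches of its length directly before a start. RefSeq windows of 300 bases around the start were at hand for 35 of the 44 genes. These genes have 38 windows, and a gene was counted when any of its windows held the motif. The shares below set genes beside single windows, which are not quite like measures. Among those 35 genes GGGCGG was found in 22 (62.9%), against 35.7% of all 32851 windows. TATAAA was found in 5 (14.3%, against 13.6%) and CCAAT in 13 (37.1%, against 37.4%), searched on both strands. A match is a description of the letters and was not tied to any ratio.

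The type V chains, which start fibrils and limit their width, followed type I with 1 exception. Col5a1 stood at 2486 and 3006 CPM, 3131 and 93.6 CPM, and 112 and 275 CPM, and its log2 ratios were 0.30, -4.52 and 0.75. Col5a2 stood at 2129 and 1859 CPM, 2575 and 89.3 CPM, and 87.9 and 291 CPM, with ratios of -0.17, -4.30 and 1.18. Both were thus lower with C-PC at the middle stage, and only Col5a2 was called higher at the late stage. Col5a3 stood at 664 and 714 CPM, 704 and 35.2 CPM, and 189 and 110 CPM. Unlike the other type V chains it was higher in the late control than in the late C-PC library, with a log2 ratio of -1.33 (-1.42 to -1.25). On the total-reads scale this late call was lost, as were those of Col27a1 and Col15a1, while Col5a1 was called higher. Col24a1 and Col27a1, fibrillar collagens known from bone and cartilage, reached at most 63.9 and 62.3 CPM. Both were lower with C-PC at the middle stage, at -2.90 and -2.76, and Col27a1 also at the late stage, at -1.40.

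Levels of different genes can be compared only per length. Per kilobase of the gene length in the tables and scaled to total reads (RPKM), Col1a1, Col3a1 and Col1a2 led in this order in 5 of the 6 libraries, at 2726, 1814 and 1002 RPKM in the early control. In the late control Col3a1 led at 93.1 RPKM, and Col4a1 at 71.2 and Col1a1 at 69.2 RPKM were close behind it. The order of Col1a1 and Col3a1 rests on the length used. In the early control their RPKM ratio, Col3a1 over Col1a1, was 0.665 with the length in the tables and 1.06 with the longest coding transcript, an alternative chosen after seeing the data.

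Fibroblast and myofibroblast markers were, like the fibrillar genes, mostly lower with C-PC at the middle stage, while the early and late stages were less alike. The 10 fibroblast markers summed to 8358, 7613 and 6844 CPM in the early control, early C-PC library and middle control and to 915, 941 and 1578 CPM in the other 3, middle C-PC, late control and late C-PC. None of these 10 was called at the early stage, 8 were lower at the middle stage, and at the late stage 3 were higher and 1 lower. Of all genes, 2.92% were higher early, 28.1% lower at the middle stage, and 26.3% higher and 23.1% lower at the late stage. The 7 myofibroblast markers summed to 3319, 4074, 7593, 203, 198 and 1605 CPM in the same order. At the early stage 3 of these 7 were called higher, with a list median log2 ratio of 0.93 against 0.13 for the fibrillar genes, none of which was called. Lrrc15, a surface protein of activated fibroblasts, led the abundant ones at 1.45, on 97.1 and 261 CPM. At the middle stage 4 of 7 were lower, and at the late stage 4 were higher and 1 lower. Lrrc15 alone stood at 780 CPM in the late C-PC library, against 1.17 CPM in its control (8.71). Cnn1 was the lower one, at -1.73, and Acta2 and Tagln were not called. No marker of either list was at 0 reads in any library. Pdgfra, a fibroblast receptor, stood at 491 and 65.2 CPM at the middle stage (-2.37) and Postn, a matrix protein of activated fibroblasts, at 4763 and 79.7 CPM (-5.36). The part of these cell types in the collagen ratios was not tested. Macrophage markers summed to 5094 to 6530 CPM in both early libraries and the middle control and to 296 to 787 CPM in the other 3. Their part was not tested either.

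The FACIT collagens split into abundant members that were lower with C-PC at the middle stage and scarce members that were higher there. Col12a1, which sits on type I fibrils under load, stood at 1658 and 925 CPM, 2711 and 46.03 CPM, and 22.1 and 140 CPM. It spanned 123-fold between its highest and lowest library, the widest range of any member with reads in every library. Its log2 ratios were -0.82, -5.33 (-5.44 to -5.23) and 2.12 (1.96 to 2.29), and the middle value was the lowest of all 44 genes at that stage. Col14a1, a FACIT collagen of mature dermis and tendon, stood at 317 and 307 CPM, 897 and 61.5 CPM, and 63.6 and 152 CPM, with ratios of -0.02, -3.32 and 0.71. Col16a1 stood at 190 and 240 CPM, 320 and 17.5 CPM, and 17.1 and 134 CPM, with ratios of 0.36, -3.64 and 2.41. All 3 were thus lower with C-PC at the middle stage, and Col12a1 and Col16a1 were higher at the late stage.

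Col22a1, a FACIT collagen of the junction between muscle and tendon, went the other way. It stood at 15.4 and 1.54 CPM at the early stage, 3.09 and 25.9 CPM at the middle stage and 9.95 and 0.411 CPM at the late stage. Its highest level was in the muscle-rich middle C-PC library and its lowest in the late C-PC library, where muscle markers summed to 2320 CPM. The levels did not follow muscle markers in every library. In the late control, also muscle-rich, Col22a1 was lower than in the early control, where muscle markers summed to 12410 CPM. The log2 ratios were -3.20 (-3.93 to -2.71), 3.55 (3.18 to 4.07) and -4.73 (-6.48 to -4.07). Skeletal muscle markers had C-PC ratios of the same sign as Col22a1 at each stage. Called lower were 10 of 13 at the early stage, higher all 13 at the middle stage and lower all 13 at the late stage. Among all genes, 6.85% were lower at the early stage, 23.6% higher at the middle stage and 23.1% lower at the late stage. None of the 13 was at 0 in any library, and their part in the Col22a1 ratios was not tested. Col19a1 and Col20a1, both scarce FACIT collagens, had middle ratios of 2.30 and 1.25, both called higher, and late ratios of -2.52 and -1.97, both called lower, as for Col22a1. At the early stage they differed from it, with uncalled ratios of -0.82 and 0.09, and Col19a1 was highest in the early control, at 4.55 CPM. Neither exceeded 7.74 CPM in any library, Col19a1 rests on 2 and 14 reads at the middle stage, and Col20a1 overlaps another gene on its own strand, so its reads may be shared.

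Type IV collagen, the network of basement membranes, differed the least between libraries among the abundant classes. Col4a1 and Col4a2, the chains of nearly all basement membranes, are transcribed from opposite strands on chromosome 8, and their annotated genes overlap by 22 bases at the starts. Col4a1 stood at 1445 and 1411 CPM, 1642 and 348 CPM, and 532 and 548 CPM. Col4a2 stood at 888 and 827 CPM, 1007 and 235 CPM, and 374 and 365 CPM. Both were highest in the middle control and lowest in the middle C-PC library, and at the late stage the CPM of both libraries lay close together. Their log2 ratios at the middle stage were -1.69 (-1.73 to -1.65) and -1.55 (-1.60 to -1.50), smaller than those of any fibrillar gene. At the late stage they were -0.50 and -0.58, and that of Col4a1 changed sign to 0.04 when scaled to total reads.

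The minor type IV chains behaved differently from the major ones. Col4a3 and Col4a4, found in specialised basement membranes such as that of the kidney filter, were scarce, with at most 4.40 and 12.3 CPM. Col4a3 stood at 0.388 and 0.713 CPM, 0.630 and 3.03 CPM, and 3.46 and 4.40 CPM. Its lowest levels were in the 3 libraries where Col4a1 was highest, and the middle C-PC library exceeded its control by a log2 ratio of 2.56 (1.82 to 3.95), on 10 and 52 reads. Col4a4 was higher with C-PC at the same stage, at 1.49 (1.02 to 2.06), although this call and those of Col4a6 and Col20a1 were lost on the total-reads scale. The genes face away from each other from starts 71 bases apart. The bases between them, which both genes share as upstream sequence, are shown on the strand of Col4a4, the minus strand, at chr1:82586850-82586920 (RefSeq, GRCm38.p6).
Col4a4 to Col4a3: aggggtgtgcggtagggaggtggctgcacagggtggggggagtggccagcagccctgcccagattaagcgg
This stretch is 69.0% G or C. It holds no CCAAT, a motif found in 13.3% of upstream stretches of that length. It also holds neither of the other motifs, found in 20.7% (GGGCGG) and 4.41% (TATAAA) of such stretches.

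Col4a5 and Col4a6, an X-linked pair whose chains occur in the basement membrane of the epidermis, had starts 1308 bases apart. Col4a5 was called higher with C-PC at the early stage, at 1.40 (1.07 to 1.78), and at the late stage, at 1.17 (0.89 to 1.48). Col4a6 had 3 reads in each early library, 11 and 25 at the middle stage and 30 and 189 at the late stage, or 0.166 and 0.178 CPM, 0.693 and 1.46 CPM, and 1.85 and 11.1 CPM. It was highest in the late C-PC library and too low to compare at the early stage, with log2 ratios of 1.44 (0.54 to 2.79) at the middle and 1.98 (1.47 to 2.64) at the late stage. The ratio of Col4a5 to Col4a6 reads was 32.0 and 78.7 in the early libraries, each resting on 3 reads of Col4a6, 13.5 and 8.16 at the middle stage and 4.13 and 2.29 (95% interval 1.92 to 2.73) at the late stage. Endothelial markers, a source of Col4a1 and Col4a2, summed to 1017 to 1554 CPM in 5 libraries. In the late C-PC library they summed to 416 CPM, with 9 of 10 called lower there, against 23.1% of all genes. Pericyte markers summed to 362 CPM in the late C-PC library and to 461 to 977 CPM elsewhere. Their part in the type IV levels was not tested.

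**Figure D3:**
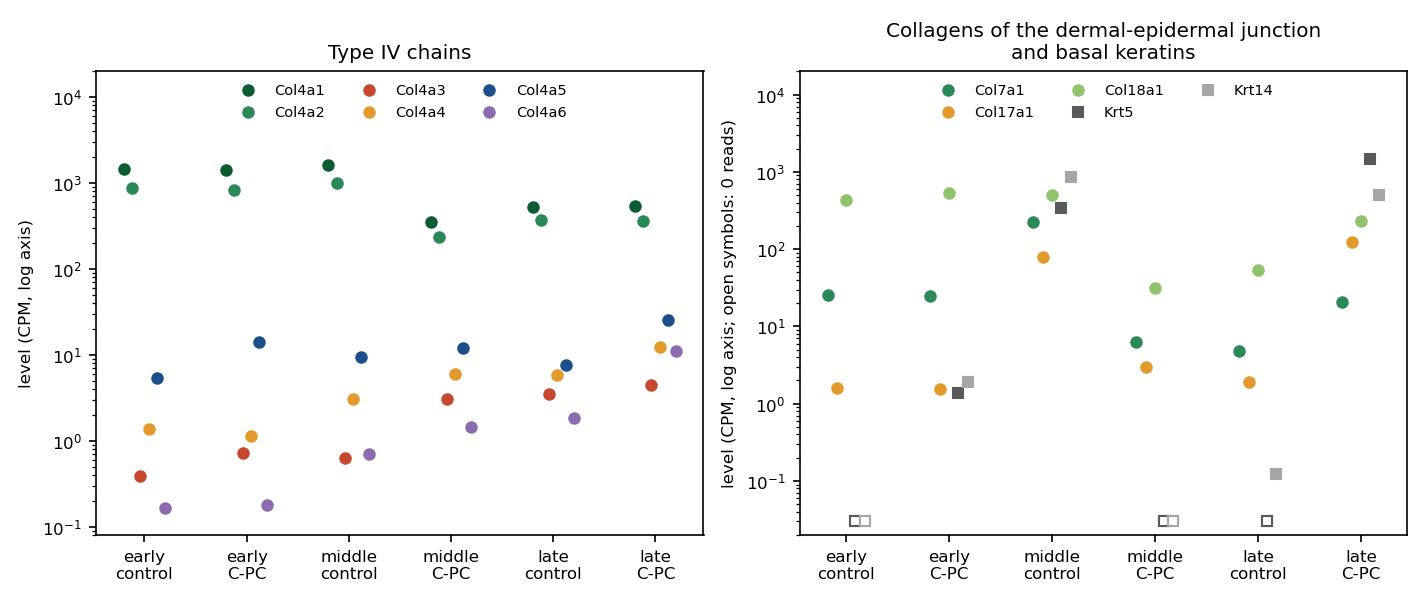
Levels in CPM on a log axis of the 6 type IV chains (left) and of Col7a1, Col17a1 and Col18a1 beside the basal keratins Krt5 and Krt14 (right) in each library; open symbols stand for 0 reads. Col17a1 reaches 79.4 CPM in the middle control and 124 CPM in the late C-PC library, the 2 libraries in which Krt5 lies above 2 CPM.

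Of the collagens at the junction between epidermis and dermis, Col17a1 was high in the same libraries as the basal keratins, while Col7a1 and Col18a1 did not follow them in every library. Col17a1, a transmembrane collagen that anchors basal keratinocytes through hemidesmosomes, stood at 1.61 and 1.54 CPM, 79.4 and 2.97 CPM, and 1.92 and 124 CPM. It was high in the middle control and the late C-PC library and below 3 CPM in the other 4. The log2 ratio was -0.03 at the early stage, -4.15 (-4.63 to -3.79) at the middle stage and 5.40 (4.96 to 6.03) at the late stage, the highest of any collagen gene at any stage. Krt14 stood at 854 CPM in the middle control, 498 CPM in the late C-PC library and 0 to 1.90 CPM in the other 4. The 10 basal keratinocyte markers summed to 2242 and 3333 CPM in those 2 libraries and to 471 to 650 CPM in the other 4. In those 4 most of the sum was Dst, at 295 to 538 CPM, a marker called lower with C-PC at the late stage (-1.18). In the late control 2 of the 10 were at 0 reads, as were 3 in the middle C-PC library and 2 in the early control. Their part in the Col17a1 ratios was not tested.

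Because Col17a1 gave the highest ratio, the part of its RefSeq window before the start that holds no annotated exon is shown, chr19:47692095-47692292 on the minus strand (GRCm38.p6). The gene lies from 47646344 to 47692094 on chromosome 19, and capitals mark TATAAA.
Col17a1: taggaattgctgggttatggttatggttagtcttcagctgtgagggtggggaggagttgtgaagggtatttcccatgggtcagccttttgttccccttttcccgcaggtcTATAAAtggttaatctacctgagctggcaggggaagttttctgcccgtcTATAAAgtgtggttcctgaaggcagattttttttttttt
It holds 2 copies of TATAAA, a motif present in 9.90% of all upstream stretches of that length.

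Col7a1, the collagen of the anchoring fibrils below the epidermis, stood at 25.9 and 25.0 CPM, 226 and 6.29 CPM, and 4.88 and 20.9 CPM. Its level in the middle control exceeded that of every other library, and in the late C-PC library, which has the higher Krt5 level, it was no higher than in the early libraries. The log2 ratios were -0.02, -4.60 (-4.91 to -4.35) and 1.53 (1.20 to 1.92). Col18a1, a basement membrane collagen that gives rise to endostatin, stood at 435 and 534 CPM, 506 and 31.7 CPM, and 53.5 and 228 CPM, with ratios of 0.32, -3.45 and 1.54. It was highest in the early C-PC library, where Krt5 was nearly absent. Its reads may include some of Slc19a1, which overlaps it on the other strand and had 203 to 414 reads per library. Col15a1, a close relative found around muscle fibres and capillaries, stood at 241 and 286 CPM, 314 and 81.6 CPM, and 202 and 131 CPM. It was called lower with C-PC at the middle stage, at -1.40, and at the late stage, at -1.18, so it parted from Col18a1 at the late stage.

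The remaining transmembrane collagens were scarce. Col23a1 stood at 34.9 and 33.7 CPM, 31.7 and 6.58 CPM, and 7.35 and 19.2 CPM. It was called lower at the middle stage, at -1.71, and not called at the late stage, at 0.83. Col25a1 had at most 22 reads in a library, with 10 and 2 at the early stage, 22 and 7 at the middle stage and 1 and 13 at the late stage. Its late log2 ratio of 1.93 has an interval from 0.34 to 8.49, so the size of this difference is not resolved at this depth. Col13a1, a collagen of the neuromuscular junction, lay between 2.02 and 5.71 CPM in every library and was not called at any stage.

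Among the type VI chains, Col6a1, Col6a2 and Col6a3 were lower with C-PC at the middle stage, like all 8 fibrillar genes. At the late stage they were not called, while 4 of the 8 fibrillar genes were higher and 2 lower. Col6a1 stood at 1184 and 1386 CPM, 2286 and 169 CPM, and 215 and 281 CPM. Col6a2 stood at 1128 and 1320 CPM, 2051 and 159 CPM, and 230 and 269 CPM. Col6a3, the largest chain, stood at 1654 and 2029 CPM, 3118 and 154 CPM, and 167 and 304 CPM. Each was highest in the middle control and lowest in the middle C-PC library. The middle log2 ratios were -3.22, -3.14 and -3.80, and the late ones were -0.16, -0.33 and 0.31. The late ratios of Col6a1 and Col6a2 turned positive, to 0.38 and 0.22, when scaled to total reads.

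Col6a4, Col6a5 and Col6a6 are chains that can take the place of Col6a3. Col6a4 had 15 and 22 reads, 26 and 0, and 1 and 41. With C-PC it was at least 6.44-fold lower at the middle stage, taking 3 reads as the floor, and higher at the late stage at a log2 ratio of 3.43 (2.18 to 10.07). Col6a5 stood at 2.66 and 10.5 CPM, 36.7 and 3.14 CPM, and 3.21 and 9.57 CPM. It was higher with C-PC at the early stage (1.96, 1.54 to 2.496), lower at the middle stage (-2.96) and higher at the late stage, where its ratio of 1.00 lies at the 2-fold line. This late call was lost under DESeq2 size factors (0.99) and with a pseudocount of 8 (0.94). Col6a6 ranged from 6.60 to 39.9 CPM and was not called at any stage.

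Cartilage collagens were the class that set both early libraries apart. Col2a1, the main collagen of cartilage fibrils, stood at 88.7 and 1.19 CPM at the early stage, 80.8 and 13.6 CPM at the middle stage and 111 and 0.998 CPM at the late stage. It was high in all 3 controls and low in all 3 C-PC libraries, with 1282 to 1804 reads in a control and 17 to 233 in a C-PC library. The log2 ratios were -6.07 (-6.92 to -5.57), -2.02 (-2.24 to -1.83) and -7.16 (-8.13 to -6.67), and the late value was the lowest of any collagen gene at any stage.

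Type IX collagen, which coats these fibrils, had the same direction. Col9a1 had 135 reads in the early control and 1 in the early C-PC library, 76 and 21 at the middle stage and 96 and 0 at the late stage. The late difference is at least 49.2-fold, taking 3 reads as the floor, and the early and middle log2 ratios were -5.43 and -1.36. Col9a2 had 51 and 4 reads, 42 and 18, and 186 and 2, with log2 ratios of -3.04, -0.74 and -6.02. Col9a3 had ratios of -1.21, -1.19 and -3.05, but it overlaps the antisense gene Tcfl5, which had 0 to 287 reads per library, and the libraries do not keep the strand. Col10a1, the collagen of hypertrophic cartilage in growth plates and fracture callus, had ratios of -3.28, -2.45 and -2.22 on at most 99 reads in a library. It overlaps Nt5dc1 on the other strand. Col2a1, Col9a1, Col9a3 and Col10a1 were the 4 members called lower with C-PC at every stage. Of all genes, 2.93% were lower at both the early and the middle stage, and 1.73% at both the middle and the late stage. The share of all genes lower at all 3 stages was not counted. For Col9a3, on 13 to 114 reads a library, being called at every stage rests on the pseudocount. With 8 in place of 2 its early and middle ratios were -0.995 and -0.96, and neither was called. Under a minimum mean of 5 CPM, Col9a1, Col9a3 and Col10a1 lost their calls at every stage. Col9a2 lost its early call, and Col2a1 kept all of its calls.

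Type XI collagen, which sets the width of cartilage fibrils and is also made by other cells, was less uniform. Col11a1 stood at 176 and 85.5 CPM, 87.4 and 12.3 CPM, and 8.03 and 17.1 CPM. It was called lower at the early stage, just past the line at -1.02, lower at the middle stage, at -2.28, and not called at the late stage, at 0.53. Col11a2 stood at 65.6 and 4.63 CPM, 10.7 and 8.90 CPM, and 15.7 and 2.17 CPM. It was called lower at the early and late stages, at -3.77 and -3.32, and not at the middle stage, at 0.27, a value that turned to -0.26 on the total-reads scale.

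Genes of cartilage outside the collagens were mostly lower with C-PC at every stage. Those of bone were mostly lower at the early and middle stages and mixed at the late stage. At the early stage 5 of 8 compared cartilage markers and 6 of 7 bone markers were lower with C-PC, and none was higher. Of all genes, 6.85% were called lower at the early stage, 28.1% at the middle stage and 23.1% at the late stage. Acan, the large proteoglycan of cartilage, stood at 38.0 and 1.96 CPM at the early stage, 7.75 and 1.34 CPM at the middle stage and 15.1 and 6.28 CPM at the late stage. Snorc had no read in the early and late C-PC libraries, and Ibsp, a bone matrix protein, stood at 167 CPM in the early control and at 0 reads in the early C-PC library. The bone list summed to 251 and 36.0 CPM, 91.1 and 26.5 CPM, and 32.0 and 32.8 CPM. The cartilage list summed to 95.3 and 35.0 CPM, 61.8 and 211 CPM, and 213 and 101 CPM. In both muscle-rich libraries most of that sum was Sox6, at 200 and 178 CPM. Of the cartilage list 6 of 8 were lower and 1, Sox6, higher at the middle stage, and 6 were lower and 2 higher at the late stage. The late 2 were the cartilage transcription factors Sox9, at 4.39 and 64.7 CPM (3.31), and Sox5, at 2.78 and 20.2 CPM (2.27), which other tissues also express. Of the bone list 5 of 7 were lower and 1 higher at the middle stage, the phosphatase Alpl at 1.71. At the late stage 3 were lower, 3 were not called and the transcription factor Runx2 was higher, at 1.67 and 13.5 CPM (2.40). These genes are named after their values were seen. Tendon markers summed to 2944 and 889 CPM at the early stage, mostly Thbs4, the 1 of 4 called lower, and to 45.8 to 610 CPM later. The part of cartilage, bone or tendon tissue in these ratios was not tested.

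**Figure D4:**
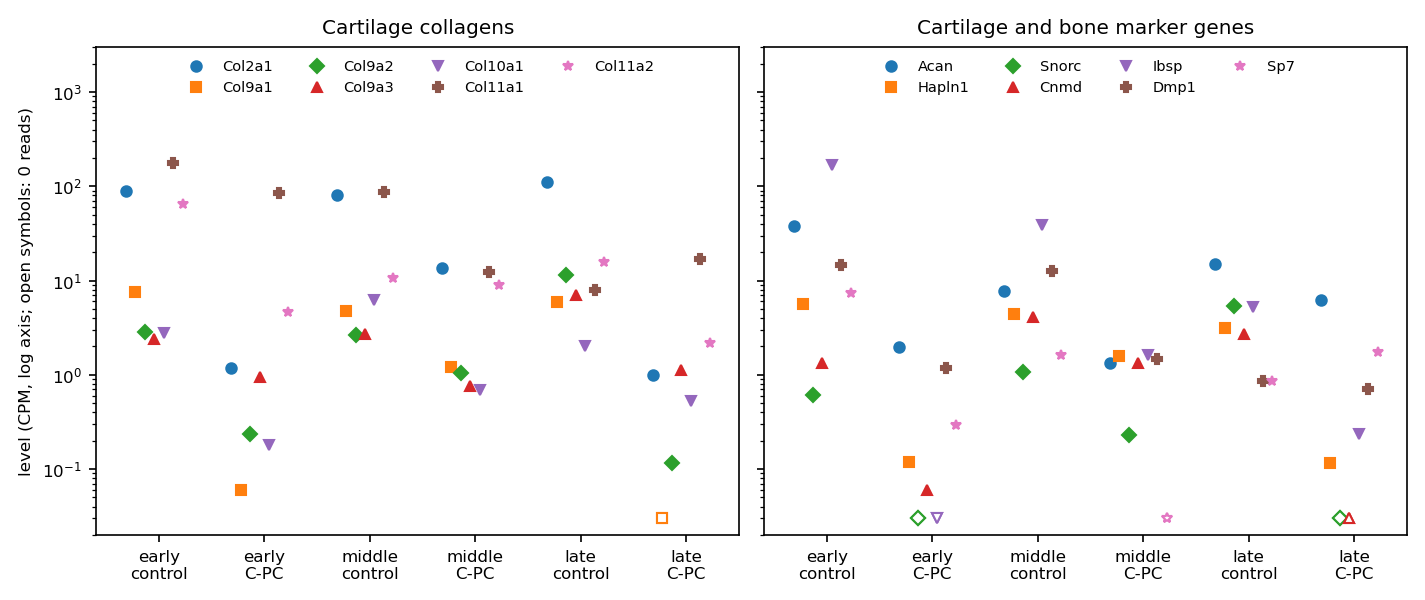
Levels in CPM on a log axis of the 7 cartilage collagens (left) and of 7 cartilage and bone marker genes (right) in each library. Open symbols stand for 0 reads. The right panel draws only part of the cartilage and bone lists. It leaves out Sox5, Sox6, Sox9, Alpl and Runx2, each called higher with C-PC at the middle or the late stage. Col2a1 lies at 80.8 to 111 CPM in the controls and at 0.998 to 13.6 CPM in the C-PC libraries, and Ibsp has 0 reads in the early C-PC library.

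Of the members in no other class, Col8a1, a chain of short networks in vessel walls and the cornea, stood at 227 and 157 CPM, 202 and 16.5 CPM, and 13.8 and 32.5 CPM. It was called lower at the middle stage, at -3.06, and not at the others. Col8a2, its partner, was called lower at the early stage, at -1.10. Col26a1 stood at 2.16 and 3.92 CPM, 6.05 and 0.931 CPM, and 1.48 and 1.12 CPM and was called lower at the middle stage, at -2.04. Col28a1, known from the sheath around peripheral nerves, stood at 3.88 and 13.4 CPM, 6.37 and 1.80 CPM, and 1.85 and 2.76 CPM. It was higher with C-PC at the early stage, at 1.78 (1.42 to 2.22), and lower at the middle stage, at -1.23. Schwann cell markers summed to 249 and 391 CPM at the early stage, with 5 of 8 higher and none at 0 in either library. At the middle stage they summed to 236 and 272 CPM with 5 of 8 higher, so the list and Col28a1 parted there. At the late stage they summed to 807 and 354 CPM, with 1 higher and 4 lower. Their part was not tested. Adipocyte markers summed to 395 to 586 CPM in both early libraries and the middle control. In the other 3 they summed to 2261 to 6682 CPM, with all 10 higher at the middle stage and all 10 lower at the late stage. Beside these lists, 2.92% of all genes were higher at the early stage and 23.6% at the middle stage. At the late stage 26.3% of all genes were higher and 23.1% lower.

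Some pairs of chains that can assemble together kept nearly the same read ratio in every library, and others did not. The ratio of Col6a1 to Col6a2 reads lay between 0.934 and 1.11 in all 6 libraries, a 1.19-fold range, while their levels spanned 13.6-fold and 12.9-fold. Col4a1 over Col4a2 lay between 1.42 and 1.71, a 1.20-fold range, while their levels spanned 4.72-fold and 4.28-fold. These 2 ratios were thus nearly constant over libraries that differed widely in collagen. At the other end, Col11a1 over Col11a2 ranged from 0.512 in the late control to 18.5 in the early C-PC library, a 36.1-fold range. Col9a3 over Col9a2 spanned 15.5-fold, on as few as 2 reads, and Col8a1 over Col8a2 spanned 7.75-fold, from 2.54 in the middle C-PC library to 19.6 in the early one. Col6a3 over Col6a1 lay between 0.778 and 1.46, a 1.88-fold range, and was below 1 only in the muscle-rich pair. Col1a1 over Col1a2 ranged further: it was 1.44 and 1.45 at the early stage, 1.24 and 0.873 at the middle stage and 0.933 and 1.20 at the late stage. The counting intervals of the 2 values below 1, 0.904 to 0.964 in the late control and 0.853 to 0.893 in the middle C-PC library, do not reach the other 4. Both of those libraries are muscle-rich. Col5a3 over Col5a2 was 2.15 (2.02 to 2.29) in the late control and 0.273 to 0.394 in the other 5, so the late control stood alone, apart also from the muscle-rich middle C-PC library. Some ratios were also read between chains of different molecules. Col3a1 over Col1a1 was highest in the late control, at 2.01 (1.96 to 2.07), and 0.877 to 1.33 in the others. Col12a1 over Col14a1 ranged from 5.23 in the early control to 0.347 in the late control. Read ratios of chains of unequal length are compared here only between libraries.

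**Figure D5:**
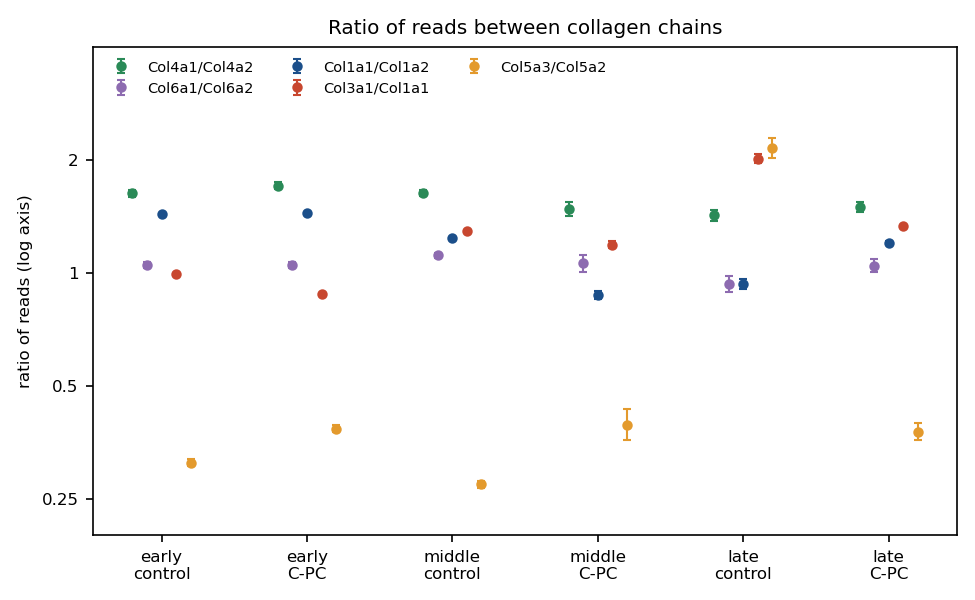
Ratio of reads between 2 collagen chains in each library, on a log axis, with exact 95% counting intervals. Col4a1 over Col4a2 and Col6a1 over Col6a2 stay within 1.42 to 1.71 and 0.934 to 1.11, while Col5a3 over Col5a2 stands at 2.15 in the late control and at 0.273 to 0.394 in the other 5 libraries.

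Genes that fold, process, crosslink, bind and degrade collagen were read from 6 lists, chosen with earlier results of these data known. The degradation list also holds Timp1 and Timp2, inhibitors of matrix proteases, so its counts and medians are not of degradation alone. At the early stage no folding, processing or crosslinking gene was called. Lower were 3 of 15 fibril partners, 1 of 10 receptors and 2 of 10 degradation genes, where 6.85% of all genes were called lower. The 3 early fibril partners were Comp, Fmod and Kera, proteins of tendon and cartilage matrix, at log2 ratios of -3.15, -2.11 and -1.74. The early degradation genes were the collagenase Mmp13 and the stromelysin Mmp3, at -2.12 and -1.38.

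At the middle stage all 5 crosslinking genes and all 10 genes of the degradation list were lower with C-PC, Timp1 and Timp2 among them. So were 15 of 22 folding genes, 5 of 7 processing genes, 9 of 15 fibril partners and 7 of 10 receptors. Of all genes, 28.1% were called lower and 23.6% higher at that stage. Lox, the lysyl oxidase that crosslinks fibrils, stood at 937 and 31.9 CPM (-4.33, -4.46 to -4.21) and its relative Loxl2 at 787 and 26.2 CPM (-4.36). P4ha3, a subunit of the prolyl hydroxylase that stabilises the helix, gave -6.46, and the collagen chaperone Serpinh1, named after its values were seen, -2.27. Bmp1, which trims the procollagen end, gave -3.58 and Mmp13 -6.90. List medians were -1.84 for folding, -1.57 for processing, -3.37 for crosslinking, -1.33 for fibril partners, -1.49 for receptors and -4.17 for degradation, beside -2.16 for the collagen genes and -0.13 for all genes. Among the few called higher was Pcolce2, an enhancer of procollagen processing, at 2.41. The receptor Ddr1, at 1.44, and Fmod, at 1.73, were also called higher, and both are named after their values were seen.

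At the late stage the lists were split, where 26.3% of all genes were called higher and 23.1% lower. Of the degradation list 5 of 10 genes were higher and 3 lower. Among the higher ones were the matrix protease Mmp3 at 3.92, the cysteine protease Ctsk at 2.71, Mmp14 at 1.81 and the inhibitor Timp1 at 2.06. Mmp9 was among the lower ones, at -1.89. Lox was higher at 1.62 and Bmp1 at 1.39, the only called members of their lists. Of the 22 folding genes 2 were higher and 5 lower, with Plod2, a lysyl hydroxylase, at 1.74 and P4ha1, a prolyl hydroxylase subunit, at -1.70. The share of folding genes called lower was near that of all genes. Among fibril partners 3 were higher, led by Thbs2 at 1.44, and 3 lower, the tendon proteins Kera, Comp and Fmod at -6.31, -5.08 and -4.04. The late list medians were -0.33 for folding, 0.46 for processing, 0.66 for crosslinking, -0.31 for fibril partners, -0.20 for receptors and 0.91 for degradation. The collagen genes had 0.17 and all genes 0.15. The early medians lay between -0.39 and 0.21 for all 6 lists.

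Over the 3 stages together, the C-PC difference was fitted with limma across 16591 genes with the stage as a block, leaving 2 residual degrees of freedom. At a Benjamini-Hochberg adjusted p under 0.05 limma called no gene, so 0% of genes higher and 0% lower. At an unadjusted p under 0.05 limma counted 10 genes higher (0.0603%) and 145 lower (0.874%), of which 0 and 3 were collagens. The 3 were cartilage collagens. Col2a1 had a log2 difference of -5.08 (SE 1.15, unadjusted p = 0.0107, adjusted p = 1 by limma) and was lower in 3 of 3 stages. Col10a1 had -2.65 (SE 0.64, adjusted p = 1 by limma) and Col9a1 -4.24 (SE 1.17, adjusted p = 1 by limma), also lower in 3 of 3. edgeR's quasi-likelihood test on the recovered reads also called no gene (8 higher and 126 lower at an unadjusted p under 0.05). DESeq2 called 3 genes higher and 52 lower, among them Col2a1 (-5.43, adjusted p = 0.000308) and Col9a1 (-5.96, adjusted p = 0.0257). With 1 library per treatment and stage, sample-to-sample spread and a C-PC difference that varies by stage both enter the error of these fits and cannot be told apart.

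Between stages, with the treatment as a covariate, limma again called no gene. For the middle against the early stage 48 genes were higher (0.289%) and 118 lower (0.711%) at an unadjusted p under 0.05, none of them a collagen. edgeR called none and counted 50 higher and 69 lower at an unadjusted p under 0.05, with 1 collagen higher, and DESeq2 called 15 genes higher and 4 lower, with no collagen. For the late against the early stage the unadjusted counts were 237 (1.43%) and 827 (4.98%). They included 3 collagens higher, Col4a6 at 4.22 (SE 0.88), Col4a4 at 2.93 (SE 0.80) and Col4a3 at 2.89 (SE 1.02), and 4 lower, Col11a1, Col27a1, Col24a1 and Col8a1, at -3.08, -2.64, -2.78 and -2.85. The adjusted p by limma of these 7 was 0.77. edgeR called none, with 228 higher and 689 lower at an unadjusted p under 0.05. DESeq2 called 235 genes higher and 426 lower, among them Col4a6 (adjusted p = 0.00192), Col4a4 (0.0308) and Col17a1 (0.0446) higher and Col11a1 (0.0409) lower. The early libraries serve both comparisons, so these are not independent.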

How the data were processed

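Total RNA of mouse skin was sequenced with a library kit that does not mark the strand, per the labels' protocols. Aligner and annotation release were not given in the sources used here. Only hg38, a human build, is named in the submitters' processing notes, but the identifiers are of mouse. Coordinates of all 44 members equal those of GENCODE M21 (GRCm38).

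Each stage has 1 of the 3 tables, with a value per gene for both of its libraries. Per the file headers, the authors' log2 fold change stands beside it, with their p-value before and after adjustment. The authors deposited a signal: reads brought to a shared library size within the pair, as the values show, since 100% of them in each library came out as whole reads (tolerance 0.1 read). TMM factors from these reads gave the authors' scaling, with a largest log2 difference of -3.4e-08. The smallest total listed is 2 reads over a pair. No column of per-sample values was left unused.

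CPM uses recovered reads and total reads on genes, without TMM. Because each table has its own scaling, comparisons across stages use recovered reads. RPKM further divides by the gene length in the tables. Within a stage there is no test. Each deposited value was raised by a pseudocount of 2 before the log2 ratio, which understates differences of scarce genes. Its interval is an exact 95% conditional binomial interval of the reads, without the pseudocount. Intervals and floors cover counting error only, as reads carry no molecular identifiers. Folds against 0 reads use 3 reads per library and are no strict bound. A replicate check is not possible with 1 library a group.

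Fits used limma 3.58.1 with trend and robust settings on log2 values, after edgeR's expression filter, with edgeR 4.0.16 and DESeq2 1.42.0 as alternatives, under R 4.3.3. Stage comparisons used log2 CPM after TMM with a prior count of 2. The limma and edgeR fits of the C-PC difference were tested on simulated counts in which the stages did not differ. The stage comparisons and DESeq2 were not tested in this way. The edgeR count test on recovered reads called 0 genes in each comparison. Members, classes and lists were chosen with earlier results of these data known. Values in all 6 libraries are given for members averaging 50 CPM or more and for up to 3 members of each class with the largest ratios within a stage, and from the gene lists up to 4 members with the largest ratios among those averaging 5 CPM or more. Overlapping and antisense genes cannot be separated without strand.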

Additional observations from a re-analysis of the deposited data

Results flagged for a closer look

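For 17 pairs of neighbouring stages, a collagen gene was called higher with C-PC at 1 stage and lower at the other. Such changes of side were common among all genes: of those compared at both stages, 0.971% went from higher to lower and 2.03% from lower to higher between the early and the middle stage, and 15.9% and 13.7% between the middle and the late stage. These differences of log2 ratios were not tested, since each group holds 1 library. From the early to the middle stage the ratio of Col22a1 differed by 6.75, while those of Col28a1 and Col6a5 differed by -3.01 and -4.92. From the middle to the late stage, the largest difference was that of Col17a1, at 9.55, in the 2 pairs where basal keratins also changed sides. Among the fibrillar genes the difference was 7.16 for Col1a1, 6.29 for Col1a2, 6.68 for Col3a1 and 5.48 for Col5a2. Among the fibril-associated genes it was 7.45 for Col12a1 and 6.06 for Col16a1, against -4.82 for Col19a1, -3.22 for Col20a1 and -8.28 for Col22a1. In the basement membrane zone it was 4.99 for Col18a1 and 6.13 for Col7a1. For the minor type VI chains it was 7.03 for Col6a4 and 3.97 for Col6a5, whose late call is lost under DESeq2 size factors and with a pseudocount of 8. The muscle-rich library is the control at the late stage and the C-PC library at the middle stage, and the part of this in the differences was not tested.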

How the results depend on the processing

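Groups share no replicate numbers, so the only pairing is by stage. Without the stage as a block limma also called 0 genes for C-PC, with 11 higher and 132 lower at an unadjusted p under 0.05. Of the alternative settings of the summary values, 88 left the value within its limits and 22 moved it, and no called value changed sign. Under a minimum mean of 5 CPM the early number of lower collagen genes was 5 of 30. The 4 early calls lost were of cartilage collagens, Col9a1, Col9a2, Col9a3 and Col10a1. The middle number of higher ones was 2 of 31 with a median log2 ratio of -3.06, and the late number of lower ones 7 of 32. Scaled to total reads, the middle number of higher ones was 3. DESeq2 called 55 genes for C-PC over the stages, 661 for late against early and 19 for middle against early, with 2, 4 and 0 collagens, where limma and edgeR called none. Leaving out 1 stage in turn, limma still called 0 genes in each case, with a smallest adjusted p of 0.445 without the middle pair. The fibrillar share of collagen reads, in the order early control, early C-PC, middle control, middle C-PC, late control and late C-PC, was 83.2%, 84.9%, 83.4%, 60.4%, 45.2% and 79.3% per kilobase of gene length. Per kilobase of the longest coding transcript, chosen after seeing the data, it was 85.5%, 86.9%, 86%, 66.7%, 50.8% and 83.2%. Of the settings of named genes 807 stayed, 70 moved, mostly under total reads, and 5 passed the threshold under DESeq2. Depth limits scarce members such as Col25a1, Col6a4, Col4a6 and Col9a1, each with fewer than 10 reads in at least 1 library.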
